A study of Mus musculus with 66 samples.

Results

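The genes of the Lin28 and let-7 axis described here are the RNA-binding proteins Lin28a and Lin28b, which block the let-7 microRNAs, and 7 genes known as let-7 targets, namely Trim71, Igf2bp1, Igf2bp2, Igf2bp3, Hmga1, Hmga2 and Arid3a. They were chosen by symbol, as were the gene lists used below, with earlier results of these data known. They are 9 of the 24410 genes of the deposited table, and were all among the 15714 genes tested. The series measured polyadenylated RNA in ventral spinal cord progenitors made from mouse embryonic stem (ES) cells, in 29 MUT and 37 WT libraries. All cells received bFGF (10 ng/ml), from day 2 CHIR99021 (5 µM), an inhibitor of GSK3, and from day 3 retinoic acid (100 nM) and SAG (10 nM), which activates Smoothened. After day 5 they had SAG but no retinoic acid. They were fixed with glyoxal and stained for intracellular markers, and 10000 to 15000 cells were sorted for each population. MUT libraries are all NFIAn, that is, from cells below a gate on the transcription factor NFIA. They come from days 5, 7, 9 and 11 (D5 to D11) and from the progenitor domains p1, p2 and pM. WT libraries are NFIAn at D5, D7 and D9 and NFIAp, above the gate, at D11, and at D9 the domains p2 and pM were also sorted as NFIAp. The labels name neither the mutated gene nor the number of clones behind MUT.

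Lin28 proteins bind let-7 precursors, many of them at a GGAG motif in the loop of the hairpin, and prevent their maturation. Mature let-7 pairs through its seed with sites in the 3′ UTRs of its targets and lowers them, and Lin28a and Lin28b are themselves let-7 targets, so that each side represses the other. The axis is known as a timer of development: Lin28 is high in ES cells and the early neural tube, and its loss goes along with later fates of neural progenitors. The libraries hold polyadenylated RNA, so mature let-7 was not measured.

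The mature let-7 sequences are shown because they define the seed that pairs with the targets. All 9 different let-7 and miR-98 5p sequences of the mouse in RefSeq (GRCm38.p6) share the seed, bases 2 to 8, in capitals here, and differ further along.
mmu-let-7a-5p: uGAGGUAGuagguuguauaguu
mmu-let-7b-5p: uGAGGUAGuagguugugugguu
mmu-let-7g-5p: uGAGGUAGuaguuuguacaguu
mmu-miR-98-5p: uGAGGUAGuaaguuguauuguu

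Of 12 mouse let-7 hairpins in RefSeq, 9 hold GGAG between their arms and 3 (Mir98, Mirlet7b and Mirlet7c-2) do not.

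The sites shown next are 1 stretch per gene from the longest annotated 3′ UTR (GENCODE M21, GRCm38) of the genes whose values the results turn on most. Capitals mark CTACCTC, the reverse complement of the seed, searched on the sense strand of the UTR alone.
Lin28a: gcacagcctgttgaaCTACCTCa
Lin28b: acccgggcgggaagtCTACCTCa
Trim71: aacattgcctaagtcCTACCTCa
Igf2bp1: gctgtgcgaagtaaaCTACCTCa
Hmga1: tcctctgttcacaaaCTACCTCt
Hmga2: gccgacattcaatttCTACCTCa

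They lie at chr4:134005189-134005211, chr10:45381022-45381044, chr9:114512472-114512494 and chr11:95961778-95961800 for Lin28a, Lin28b, Trim71 and Igf2bp1, all on the minus strand, and at chr17:27563277-27563299 (plus strand) for Hmga1 and chr10:120364224-120364246 (minus strand) for Hmga2. The longest 3′ UTRs of Lin28b, Trim71, Igf2bp1 and Hmga2 hold 4 such matches each, those of Lin28a and Arid3a 2 each, and those of Igf2bp2, Igf2bp3 and Hmga1 1 each. Thus 9 of 9 genes held the match, against 10.5% of the 14245 tested genes with an annotated 3′ UTR. Among 3′ UTRs within 75 to 125% of the member's length the share with a match ran from 8.50% for the length of Hmga1 to 31.7% for that of Igf2bp1. These genes are known as targets, so the matches are a description of them, and pairing with let-7 was not measured.

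The values are normalised read counts, read counts divided by the size factor of the library. Reads recovered from them ranged from 8.738 M in 1 MUT D5 p2 library and otherwise from 20.29 to 30.83 M. In 18 libraries, all of D7 replicate 3 and D9 replicates 2 and 3, the normalised counts added up to between 26.59 and 40.23 M per library. The sums of the other 48 lay between 17.85 and 25.50 M. They also held a larger share of ribosomal protein gene reads, with a median of 11.2% against 7.44%. They are called libraries of high total here. Replicates of a group differed by more than counting error (lowest chi-squared per degree of freedom 26.7 over 55 pairs). The sum over 8 postmitotic neuron markers (Tubb3, Dcx, Elavl3 and others) was 25960 to 32805 in MUT D11 and 1350 to 10881 in MUT D5 libraries. In WT it was 19031 to 37827 at D11, and 1833 to 13087 at D5. All 8 were higher in WT at D11 than at D5, and also at D7 than at D5. The sum over 8 mesenchyme markers (Postn, Dcn, Col1a1, Col1a2, Col3a1, Twist1, Pdgfrb and Lum) was 784 to 5241.5 in MUT D11 and 212 to 636 in MUT D5 libraries, and 1155 to 6112 in WT D11 and 144 to 715 in WT D5 libraries. The sum over 6 progenitor markers (Sox2, Sox1, Nes, Vim, Hes5, Msi1) was 36765 to 59104 in WT D11 and 16933 to 33755 in WT D5 libraries. Fewer cells of a type and less RNA per cell cannot be told apart in sorted bulk samples, and the part of these markers in the results below was not tested.

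Both Lin28 genes were lost over the course, and 1 MUT D11 p2 library held as few as 2 reads of Lin28a. Lin28a (chr4:134003330-134018841, minus strand) is the paralog that acts mainly in the cytoplasm, where it recruits terminal uridylyl transferases to let-7 precursors. In MUT its lowest, median and highest library had 2408, 3260 and 5414 normalised counts at D5, 266.0, 438.5 and 739.2 at D7, 80.2, 129.6 and 305.3 at D9, and 2.2, 7.65 and 50.2 at D11 (n = 9, 9, 5 and 6). In WT they had 2072, 3878 and 5157 at D5, 358.0, 680.6 and 1288 at D7, 74.7, 134.15 and 213.5 in NFIAn cells at D9, and 4.8, 17.2 and 33.8 at D11 (n = 8, 9, 8 and 6). In both genotypes every D7 library was below every D5 library, and every D11 library below every D9 NFIAn library. WT NFIAp libraries of D9 had 16.2 to 131.7 and overlapped those of D11. D11 minus D5 was -8.18 ± 0.34 on the log2 scale in MUT and -7.82 ± 0.35 in WT (limma adjusted p 1.3e-24 and 3e-23).

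Lin28b (chr10:45376620-45486395, minus strand) blocks let-7 as well and has been described in the nucleus, where it holds back primary transcripts. It started lower and left more. In MUT the lowest, median and highest library had 1136, 1414 and 1730 at D5, 448.6, 592.7 and 894.7 at D7, 119.9, 139.5 and 155.7 at D9, and 22.3, 42.1 and 96.7 at D11. In WT they had 1205, 1427 and 2041 at D5, 273.5, 599.3 and 856.2 at D7, 88.2, 155.55 and 220.4 in NFIAn cells at D9, and 28.3, 39.05 and 50.3 at D11. In each genotype no library of a day, D9 taken as NFIAn, reached the lowest library of the day before. WT NFIAp libraries of D9 had 26.1 to 147.2 and overlapped those of D11. The difference of D11 from D5 was -5.05 ± 0.25 in MUT and -5.17 ± 0.26 in WT.

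**Figure D1:**
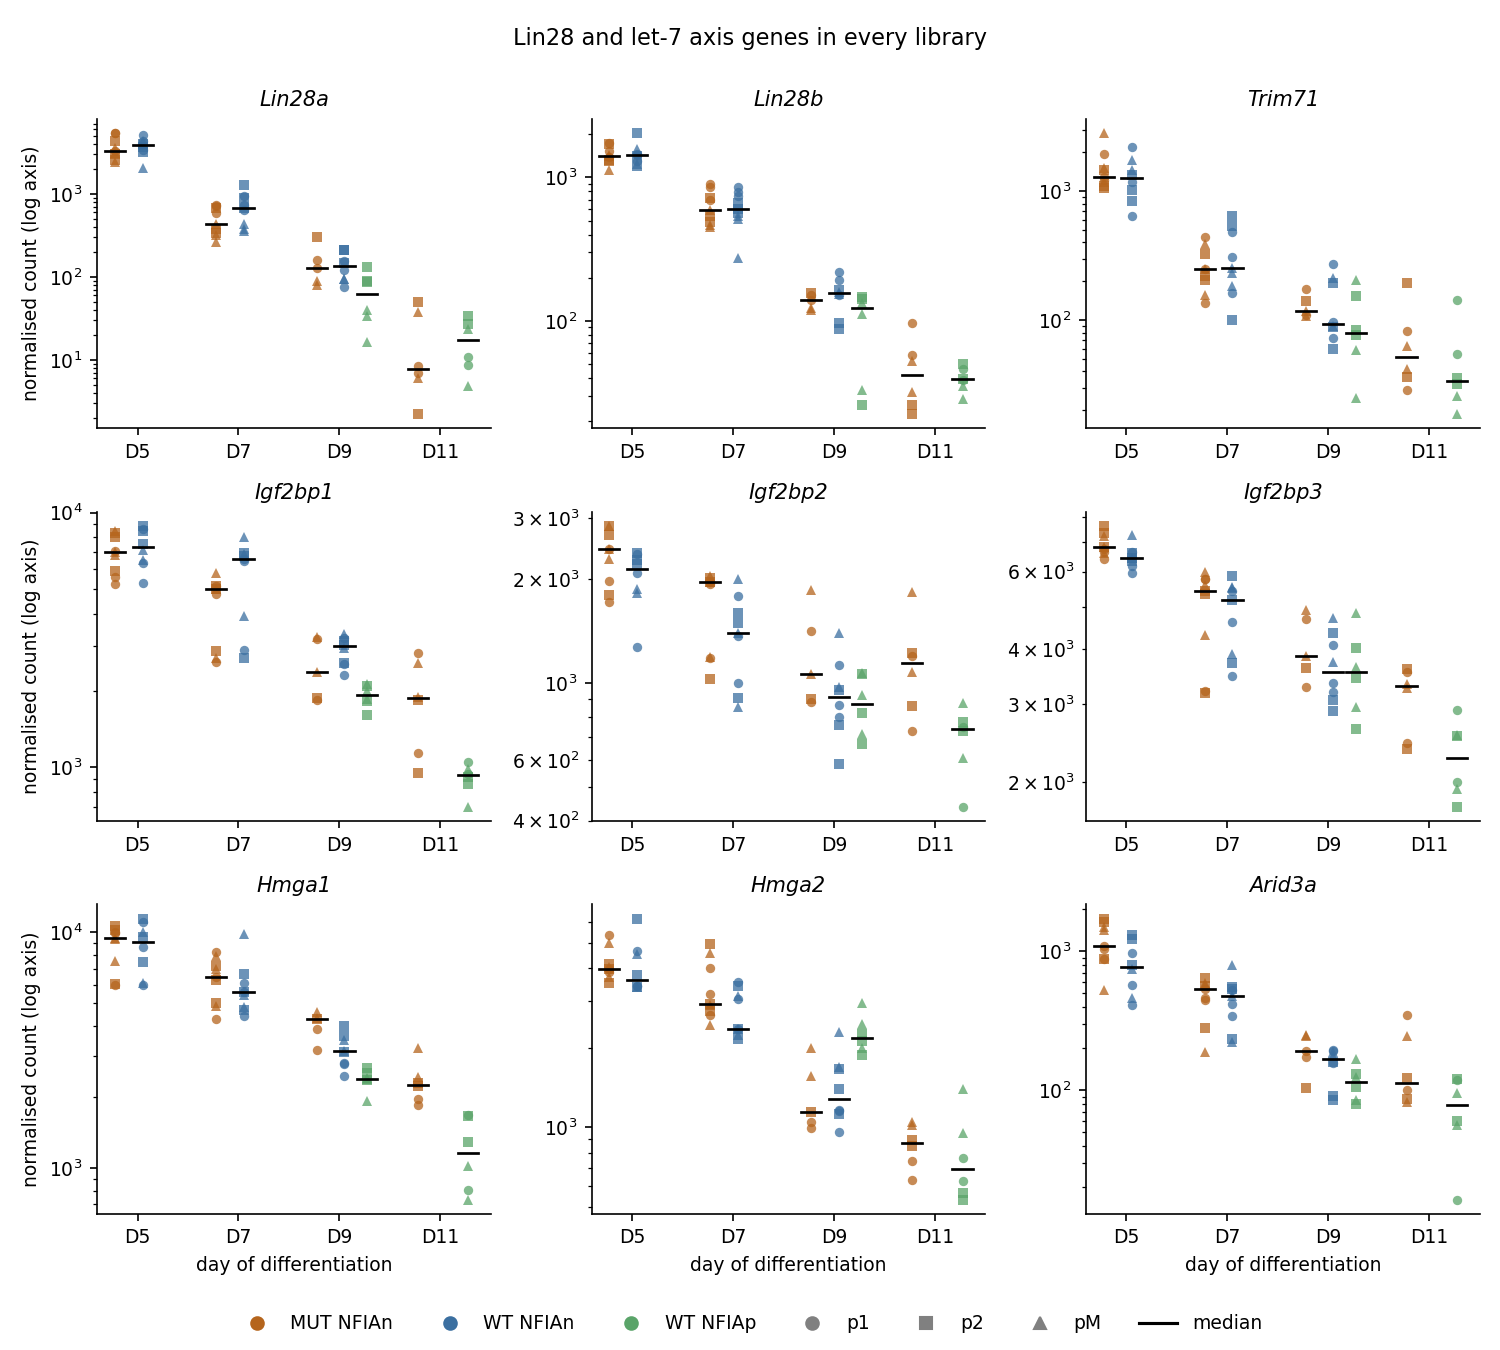
Normalised read count (log axis) of each of the 9 genes in every library by day, with MUT libraries left, WT NFIAn in the middle and WT NFIAp right. Shapes give the domain (circle p1, square p2, triangle pM) and the black bar the median of a set; Lin28a spans the widest range, with medians of 3260 at D5 and 7.65 at D11 in MUT and of 3878 and 17.2 in WT.

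Trim71 (chr9:114507133-114564369, minus strand), an RNA-binding ubiquitin ligase that is among the let-7 targets conserved from worm to mouse, fell early. Its lowest, median and highest MUT library had 1054, 1292 and 2820 at D5, 136.0, 247.2 and 437.8 at D7, 108.1, 117.2 and 173.0 at D9, and 28.9, 52.0 and 193.8 at D11. In WT they had 643.9, 1262 and 2218 at D5, 100.5, 252.9 and 644.9 at D7, 59.2, 93.55 and 274.6 in NFIAn cells at D9, and 18.6, 33.95 and 142.1 at D11. Most D7 libraries were far below all D5 libraries, while D9 and D11 libraries overlapped and MUT p2 at D11 held libraries of 35.9 and 193.8. Trim71 differed by -4.57 ± 0.41 in MUT and by -4.93 ± 0.42 in WT between D11 and D5.

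The Igf2bp genes encode RNA-binding proteins that stabilise and localise mRNAs, among them Igf2, Myc and beta-actin transcripts. Igf2bp1 (chr11:95957163-96005940, minus strand) had 5269, 7013 and 8486 in the lowest, median and highest MUT library at D5, 2584, 5016 and 5824 at D7, 1832, 2375 and 3243 at D9, and 946.5, 1865 and 2814 at D11. In WT it had 5289, 7342 and 8885 at D5, 2679, 6596 and 8024 at D7, 2312, 2984 and 3347 in NFIAn cells at D9, and 698.8, 931.5 and 1046 at D11. Its D7 libraries reached into the D5 range, and its D11 libraries did not. Igf2bp3 (chr6:49085223-49214957, minus strand) had 6425, 6816 and 7628 at D5 in MUT, 3182, 5436 and 5986 at D7, 3287, 3858 and 4920 at D9, and 2379, 3303 and 3602 at D11. In WT Igf2bp3 had 5952, 6448 and 7268 at D5, 3477, 5179 and 5877 at D7, 2892, 3555 and 4700 in NFIAn cells at D9, and 1754, 2271 and 2914 at D11. These oncofetal paralogs were at 698.8 or more in every D11 library, while neither Lin28 gene was above 96.7 in any. Igf2bp2 (chr16:22059009-22163299, minus strand), the paralog known to stay on in adult tissues, had 1713, 2438 and 2852 at D5 in MUT, 1029, 1956 and 2043 at D7, 881.9, 1061 and 1861 at D9, and 727.7, 1141 and 1835 at D11. In WT Igf2bp2 had 1272, 2141 and 2374 at D5, 852.7, 1400.5 and 1999 at D7, 581.5, 911.85 and 1395 in NFIAn cells at D9, and 437.9, 737.05 and 873.6 at D11. Only for Igf2bp2 in MUT did a D11 library, from pM, reach the D5 range when the domains are pooled. D11 minus D5 was -1.98 ± 0.22 in MUT and -3.00 ± 0.23 in WT for Igf2bp1, and -1.18 ± 0.16 in MUT and -1.54 ± 0.16 in WT for Igf2bp3. For Igf2bp2 it was -1.06 ± 0.20 in MUT and -1.54 ± 0.21 in WT.

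Hmga1 and Hmga2 encode AT-hook proteins that bind the minor groove of DNA and loosen chromatin. Hmga2 is a much used let-7 target, with seed matches in its long 3′ UTR. Hmga2 (chr10:120361275-120476469, minus strand) had 3517, 3972 and 5365 in the lowest, median and highest MUT library at D5, 2438, 2927 and 4945 at D7, 995.4, 1140 and 2000 at D9, and 630.5, 870.3 and 1051 at D11. In WT it had 3385, 3603 and 6176 at D5, 2155, 2361 and 3558 at D7, 962.2, 1282 and 2296 in NFIAn cells at D9, and 531.7, 696.1 and 1402 at D11. Its D11 libraries were all below its D5 libraries, by -2.28 ± 0.15 in MUT and -2.40 ± 0.16 in WT. Hmga1 (chr17:27556497-27563674, plus strand) had 5976, 9507 and 10599 at D5 in MUT, 4290, 6442 and 8282 at D7, 3159, 4268 and 4588 at D9, and 1850, 2254 and 3222 at D11. In WT Hmga1 had 5982, 9112 and 11447 at D5, 4400, 5599 and 9816 at D7, 2454, 3125 and 3990 in NFIAn cells at D9, and 733.0, 1155 and 1682 at D11. Every D11 library was below every D5, D7 and D9 NFIAn library of its genotype, other than the highest of MUT D11, which was above the lowest of MUT D9. The difference of D11 from D5 was -1.91 ± 0.18 in MUT and -2.90 ± 0.18 in WT. The level of Hmga1 is uncertain, because how reads that match more than 1 place in the genome were counted is not given in the sources used here.

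Arid3a (chr10:79927043-79955018, plus strand), an AT-rich DNA-binding protein and let-7 target, had 526.9, 1097 and 1721 in the lowest, median and highest MUT library at D5, 188.3, 538.1 and 638.3 at D7, 103.5, 191.3 and 249.0 at D9, and 83.0, 112.05 and 345.4 at D11. In WT Arid3a had 408.6, 774.8 and 1304 at D5, 224.3, 477.3 and 799.1 at D7, 84.9, 168.15 and 196.1 in NFIAn cells at D9, and 16.3, 77.75 and 121.3 at D11. Its D9 and D11 libraries overlapped in both genotypes, and all of them were below the D5 libraries. The difference of D11 from D5 was -2.98 ± 0.34 in MUT and -3.46 ± 0.35 in WT. All 9 genes were thus called lower at D11 than at D5 in MUT and in WT, where 22% and 22.8% of all genes tested were called lower. In all 9 the D11 libraries were also below the D5 libraries within every domain, which held for 11.9% of all genes in MUT and 14.3% in WT. The median difference was 0.04 over all genes in WT and -3.00 over the 9.

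Compared per length, the order of the genes changed between D5 and D11. Levels are normalised counts per kb of all annotated exons of the gene, pooled over its transcripts. In WT at D5 Hmga1 had the highest level per kb, with group means of 3796 to 4470. Lin28a (797.8 to 1077), Igf2bp3 (767.1 to 840.4) and Igf2bp1 (698.6 to 857.4) came next with ranges that overlapped, before Hmga2 and Igf2bp2, and Lin28b, Trim71 and Arid3a, at 108.4 to 200.0 in all, shared the lowest place. At D11 Hmga1 (412.5 to 694.7 per kb) was followed by Igf2bp3, then by Hmga2, Igf2bp1 and Igf2bp2 with overlapping ranges, then by Arid3a (12.13 to 16.27). Lin28a (2.438 to 7.574), Lin28b (3.507 to 4.937) and Trim71 (2.368 to 10.56) were now the lowest and overlapped, so Lin28a moved from among the highest levels of the set to among the lowest.

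The genes were lost at different paces. As a share of the D5 level, averaged over the domains, Lin28a stood at 13.2% at D7, 5.03% at D9 and 0.555% at D11 in MUT, and at 18.9%, 3.64% (NFIAn) and 0.50% in WT. Lin28b stood at 43.7%, 9.76% and 3.28% in MUT, and at 42.4%, 10.7% and 2.73% in WT. Trim71 stood at 17.8%, 9.10% and 5.37% in MUT, and at 25.8%, 10.3% and 3.95% in WT. At D7 Lin28a and Trim71 thus had the smallest mean shares left, below that of Lin28b, and Lin28a went on to the smallest share at D11. In WT at D7 the domains overlapped, from 13.9 to 40.1% for Trim71 and from 31.2 to 56.9% for Lin28b. In MUT they did not, at 14.3 to 20.6% and 37.9 to 52.8%. Arid3a followed, with 40.7%, 15.7% and 14.7% in MUT and 62.8%, 22.8% and 10.4% in WT. Hmga2 still stood at 81.3% at D7 in MUT, before 31.6% and 20.8%, and at 67.4% at D7 in WT, before 36.7% and 20.0%. Hmga1 stood at 72.3%, 46.3% and 26.4% in MUT and at 68.3%, 36.6% and 13.6% in WT. Igf2bp1 stood at 63.1%, 35.0% and 27.3% in MUT and at 78.8%, 40.3% and 12.6% in WT. Igf2bp2 (49.2% in MUT and 34.7% in WT at D11) and Igf2bp3 (44.8% in MUT and 35.0% in WT) kept the largest shares. In WT NFIAp cells of D9, over p2 and pM, 1.87% of the D5 level was left for Lin28a, 6.67% for Lin28b, 7.88% for Trim71 and 15.1% for Arid3a, while 54.6% was left for Hmga2. Shares at D7 and D9 depend on the libraries of high total for some genes. Without them Igf2bp1 stood at 96.1% and Trim71 at 33.3% in WT at D7. At D9 Trim71 then stood at 17.2% in NFIAn and 13.6% in NFIAp cells of WT. In MUT at D9 Igf2bp1 stood at 48.7% and Igf2bp2 at 71.5%, against 50.3% for Igf2bp2 with all libraries. The 5.03% of Lin28a at D9 in MUT rests on the single p2 library, at 9.22%, while p1 and pM stood at 3.10% and 2.77%. Without the libraries of high total, that p2 library among them, Lin28a stood at 2.84% in MUT and 3.90% in WT NFIAn cells.

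**Figure D2:**
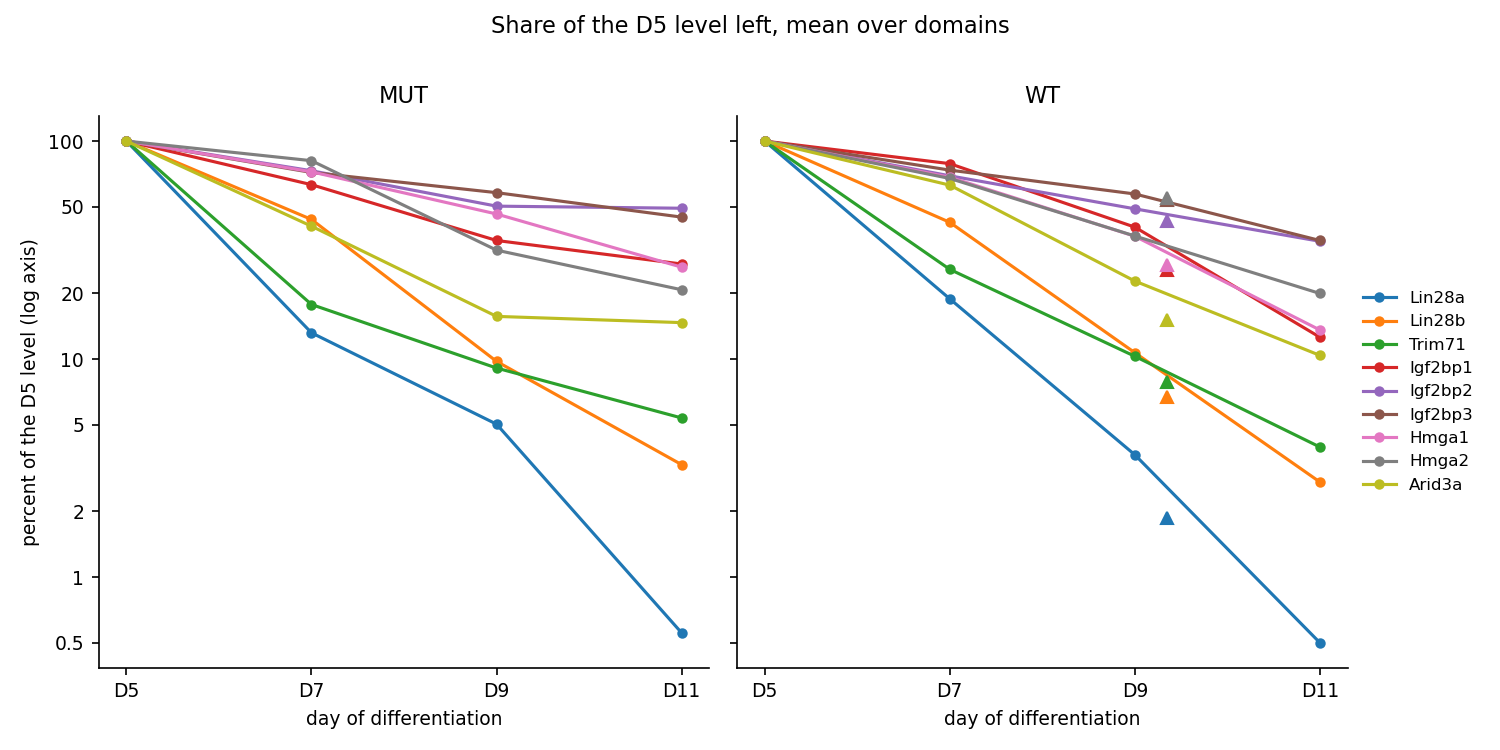
Percent of the D5 group mean left (log axis) against day for the 9 genes, MUT in the left panel and WT in the right, as the mean over domains. Lines in WT join D9 NFIAn to D11 NFIAp, and triangles just right of D9 are WT D9 NFIAp (p2 and pM); Lin28a ends lowest in both panels (0.555% in MUT and 0.50% in WT) and Igf2bp2 and Igf2bp3 end highest.

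At D7 against D5, Lin28a and Trim71 had the largest differences of the 9 genes in both genotypes. In MUT 8 of the 9 genes were called lower (background 14.3% of genes), with Lin28a at -2.93 ± 0.31 and Trim71 at -2.55 ± 0.36 ahead of Arid3a at -1.32 and Lin28b at -1.21. Hmga2 alone was not called in MUT (-0.34, limma adjusted p = 0.057). In WT 7 were called lower (background 9.51%), with Lin28a at -2.46 ± 0.32, Trim71 at -2.19 ± 0.38 and Lin28b at -1.29 ± 0.23. The calls of Hmga1, Hmga2, Igf2bp2 and Igf2bp3 rested on differences between -0.46 and -0.58, and Igf2bp1 (-0.44, adjusted p = 0.12) and Arid3a (-0.78, 0.072) were not called. Without the libraries of high total 5 of 9 were called lower in MUT and 4 in WT, and Lin28a, Lin28b, Trim71 and Hmga1 were in both sets. Without replicate 3 of WT D5 pM, too, 4 were called in WT. For Igf2bp1 the 6 D7 replicate 3 libraries had 2584 to 3927, and the others of D7 had 4784 to 8024.

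At D9 against D7 both Lin28 genes, Arid3a and Hmga2 were among the genes called lower in NFIAn cells of both genotypes. In MUT 6 genes were called lower (background 4.78%), with Lin28b at -2.13 ± 0.27, Lin28a at -1.57 ± 0.38, Arid3a at -1.41 ± 0.37 and Hmga2 at -1.36 ± 0.17. Of these, Lin28b and Hmga2 alone were called without the libraries of high total, and likewise in a fit on those libraries alone. Without the single MUT D9 p2 library, itself of high total, 3 were called. In WT NFIAn cells 7 were called lower (background 8.09%), with Lin28a at -2.36 ± 0.32, Lin28b at -1.98 ± 0.23, Arid3a at -1.47 ± 0.31 and Hmga2 at -0.91 ± 0.14. Lin28a, Lin28b and Hmga2 were called both without the libraries of high total and with them alone, and the fit on them alone called 4 in all. Without them Trim71 (-0.77, limma adjusted p = 0.25) and Hmga1 (-0.75, 0.054) were not called. Set against NFIAn cells of D7 in p2 and pM, WT NFIAp cells of D9 had 6 genes called lower (background 7.31%), with Lin28a at -3.48 ± 0.38, Lin28b at -2.63 ± 0.27, Arid3a at -1.92 ± 0.37, Igf2bp1 at -1.53 ± 0.24 and Hmga1 at -1.33 ± 0.19. Trim71, at -1.71, was the sixth and was not called without the libraries of high total (-1.09, limma adjusted p = 0.17). Igf2bp2, Igf2bp3 and Hmga2 were not called there. Hmga2 had 2248, 2117 and 1874 in p2 and 2957, 2471 and 2003 in pM of NFIAp D9, against 3431, 2361 and 2155 in p2 and 3133, 2238 and 2355 in pM of D7. These sets overlapped and differed by -0.19 ± 0.17 (95% interval -0.53 to 0.15, limma adjusted p = 0.48).

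At D11 against D9 both Lin28 genes, Hmga1 and Hmga2 were called lower in both genotypes. In MUT 4 genes were called lower (background 3.67%), and these were Lin28a (-3.68 ± 0.41), Lin28b (-1.71 ± 0.30), Hmga1 (-0.82 ± 0.21) and Hmga2 (-0.58 ± 0.18). Without the MUT D9 p2 library, as without all libraries of high total, Lin28a and Lin28b were called and Hmga1 and Hmga2 were not. The call of Hmga2 was lost on leaving out any of 7 of the 11 libraries. Between NFIAp libraries of D11 and D9 in WT, 7 were called lower (background 3.98%). Hmga2 had 563.7 and 531.7 in p2 and 1402 and 952.1 in pM at D11, against the 6 NFIAp D9 values given before, and no D11 library reached them in either domain. Its difference was -1.50 ± 0.19, with Hmga1 at -1.07 ± 0.22, Igf2bp1 at -1.15 ± 0.27, Igf2bp3 at -0.70 ± 0.19, Lin28a at -1.49 ± 0.42, Lin28b at -1.08 ± 0.31 and Trim71 at -1.55 ± 0.50. D11 and D9 libraries of Lin28a, Lin28b and Trim71 overlapped in at least 1 domain. Lin28a was not called without the libraries of high total (-1.63, limma adjusted p = 0.17), and a fit on the compared groups alone called 3, without Lin28a, Lin28b, Trim71 and Igf2bp3. Leaving out 1 library lowered the count, and 3 of the 9 genes were called without replicate 2 of WT D11 p2, and 4 without replicate 2 of WT D11 pM. In p1, where D9 was NFIAn and D11 NFIAp, 5 were called lower (background 1.19%), with Lin28a at -3.41 ± 0.60 and Lin28b at -2.11 ± 0.43, and without any 1 of the 5 libraries 3 were called. A fit on the compared groups alone called 0, and without the libraries of high total 2 were called, with Lin28a (limma adjusted p = 0.065), Hmga1 (0.23) and Arid3a (0.3) lost.

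The D9 gate compared NFIAp with NFIAn cells of the same day in WT. Lin28a, Igf2bp1 and Hmga1 were lower in every NFIAp library than in every NFIAn library of the same domain, which held for 1.2% of all genes. Lin28a had 85.5, 88.9 and 131.7 in NFIAp and 213.5, 145.9 and 210.1 in NFIAn cells of p2, and 39.8, 16.2 and 33.6 in NFIAp and 95.4 and 94.8 in NFIAn cells of pM. Igf2bp1 had 2079, 1815 and 1601 in NFIAp and 3148, 2565 and 3037 in NFIAn cells of p2, and 1858, 2135 and 1990 in NFIAp and 3347 and 2932 in NFIAn cells of pM. Hmga2 went the other way, with 2248, 2117 and 1874 in NFIAp and 1658, 1402 and 1119 in NFIAn cells of p2, without overlap. In pM the Hmga2 values were 2957, 2471 and 2003 in NFIAp and 2296 and 1692 in NFIAn cells, and overlapped. The sum over the 8 mesenchyme markers also differed between the gates, at 1642 to 3419 in NFIAp and 239 to 322 in NFIAn cells of p2, and 172 to 607 in NFIAp and 71.3 to 153 in NFIAn cells of pM, without overlap. None of the 8 was called (median difference 2.39), and their part in the results was not tested.

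None of the 9 genes was called between the gates by limma in the fit over all libraries (0 of 9, background 0.204% in either direction), where 5 had an unadjusted p under 0.05. edgeR called 0 and DESeq2 called 1, Lin28a, at -1.27 (adjusted p = 0.018). A limma fit that let same-numbered libraries of a genotype and day correlate called 4, with Lin28a, Igf2bp1 and Hmga1 lower and Hmga2 higher (adjusted p 0.018 to 0.037). The limma differences were -1.31 ± 0.40 for Lin28a (95% interval -2.12 to -0.51, adjusted p = 0.19), -0.66 ± 0.25 for Igf2bp1 (0.38), -0.54 ± 0.20 for Hmga1 (0.37) and 0.45 ± 0.18 for Hmga2 (0.41, interval 0.09 to 0.81). Lin28b differed by -0.70 with an adjusted p of 0.46, and 1 NFIAp library per domain was far below the others, at 26.1 in p2 and 32.7 in pM. Nfia itself, whose protein was gated, had 408.1 to 2304 normalised counts in NFIAp and 77.8 to 670.2 in NFIAn libraries at D9, so its RNA overlapped between the gates.

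**Figure D3:**
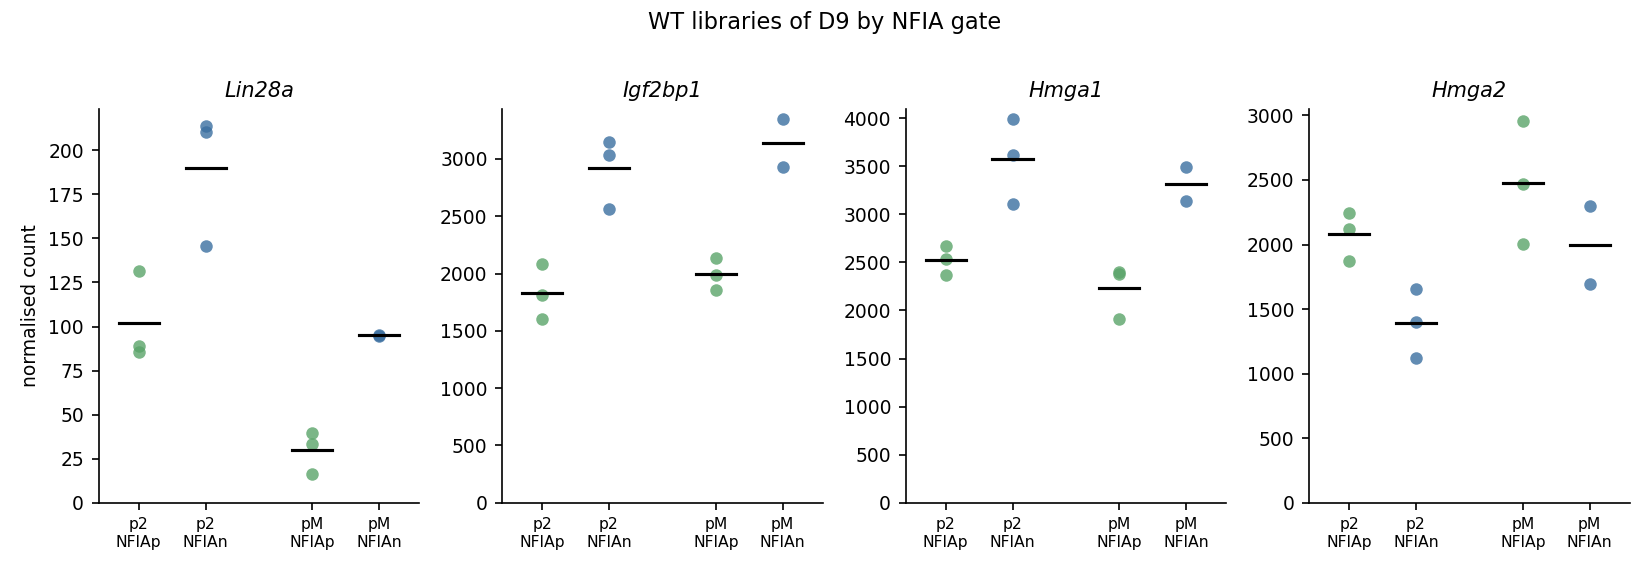
Normalised read counts of Lin28a, Igf2bp1, Hmga1 and Hmga2 in WT libraries of D9, with NFIAp (green) left of NFIAn (blue) in p2 and in pM. The other genes of the set are not drawn. Points are libraries and black bars means; Lin28a, Igf2bp1 and Hmga1 lie lower in NFIAp in both domains and Hmga2 lies higher, without overlap in p2 alone.

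MUT and WT were compared at each day. At D5 limma, in the fit over all libraries, called 0 of 9 genes (background 0.458% in either direction), with 0 at an unadjusted p under 0.05 and 0 by edgeR and DESeq2, and differences of MUT from WT between -0.07 and 0.61. At D7 it called 0 (background 2.03%), with 1 at an unadjusted p under 0.05, Hmga2 at 0.28, and 0 by edgeR and DESeq2. At D9 in NFIAn cells it called 0 (background 0.7%), with 0 at an unadjusted p under 0.05 and 0 by edgeR and DESeq2. Hmga1 in MUT lay above WT without overlap in each domain at D9, as 1.56% of genes did, with 3159, 4268 and 4588 in the lowest, median and highest of 5 MUT libraries and 2454, 3125 and 3990 in 8 WT libraries.

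At D11 Hmga1 and Igf2bp1 were higher in MUT than in WT. Hmga1 had 1850 and 1955 in p1, 2291 and 2218 in p2 and 3222 and 2436 in pM of MUT, against 805.7 and 1682 in p1, 1290 and 1663 in p2 and 733.0 and 1020 in pM of WT. Igf2bp1 had 1142 and 2814 in p1, 946.5 and 1843 in p2 and 1887 and 2574 in pM of MUT, against 944.9 and 1046 in p1, 857.1 and 918.1 in p2 and 698.8 and 988.9 in pM of WT. No WT library reached a MUT library of its domain for either gene, which held for 1.53% of all genes, although 1 MUT library in p1 and 1 in p2 lay close to WT for Igf2bp1. They were the 2 of 9 genes called higher (background 1.8%), at 1.01 ± 0.19 (adjusted p = 0.00064) and 0.94 ± 0.24 (0.013, n = 6 and 6 for both, limma). The count was 1, with Igf2bp1 lost, without replicate 3 of MUT D11 p1, replicate 3 of MUT D11 p2 or replicate 2 of WT D11 pM. It was 4, with Igf2bp2 and Arid3a added, without replicate 2 of MUT D11 p1 or pM, and 4, with Igf2bp2 and Igf2bp3 added, without the libraries of high total. A fit on the compared groups alone called 0 (limma adjusted p = 0.082 for Hmga1 and 0.19 for Igf2bp1), and one with correlated replicate numbers called 1, with Igf2bp1 at 0.077. Since MUT cells of D11 are NFIAn and WT cells of D11 NFIAp, genotype and gate cannot be told apart here. Nfia had 1014 to 2177 in MUT and 1096 to 3639 in WT libraries of that day.

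The other Igf2bp genes and Arid3a did not pass the test. Igf2bp2 differed by 0.70 ± 0.22 (adjusted p = 0.06), Igf2bp3 by 0.45 (0.14) and Arid3a by 1.09 ± 0.37 (0.082). Arid3a had 100.7 and 345.4, 87.1 and 123.4, and 83.0 and 247.3 in p1, p2 and pM of MUT, and 118.7 and 16.3, 121.3 and 59.7, and 95.8 and 56.1 in p1, p2 and pM of WT. Those values overlapped in all 3 domains. Lin28a differed by -0.38 (95% interval -1.13 to 0.38, adjusted p = 0.64) and Lin28b by 0.10 (-0.45 to 0.65, 0.89), and Hmga2 by 0.17 (0.65). The interval of Lin28a takes in a difference as large as that of Hmga1, but only in the opposite direction, lower in MUT. The test thus does not show that MUT and WT were alike in Lin28a.

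**Figure D4:**
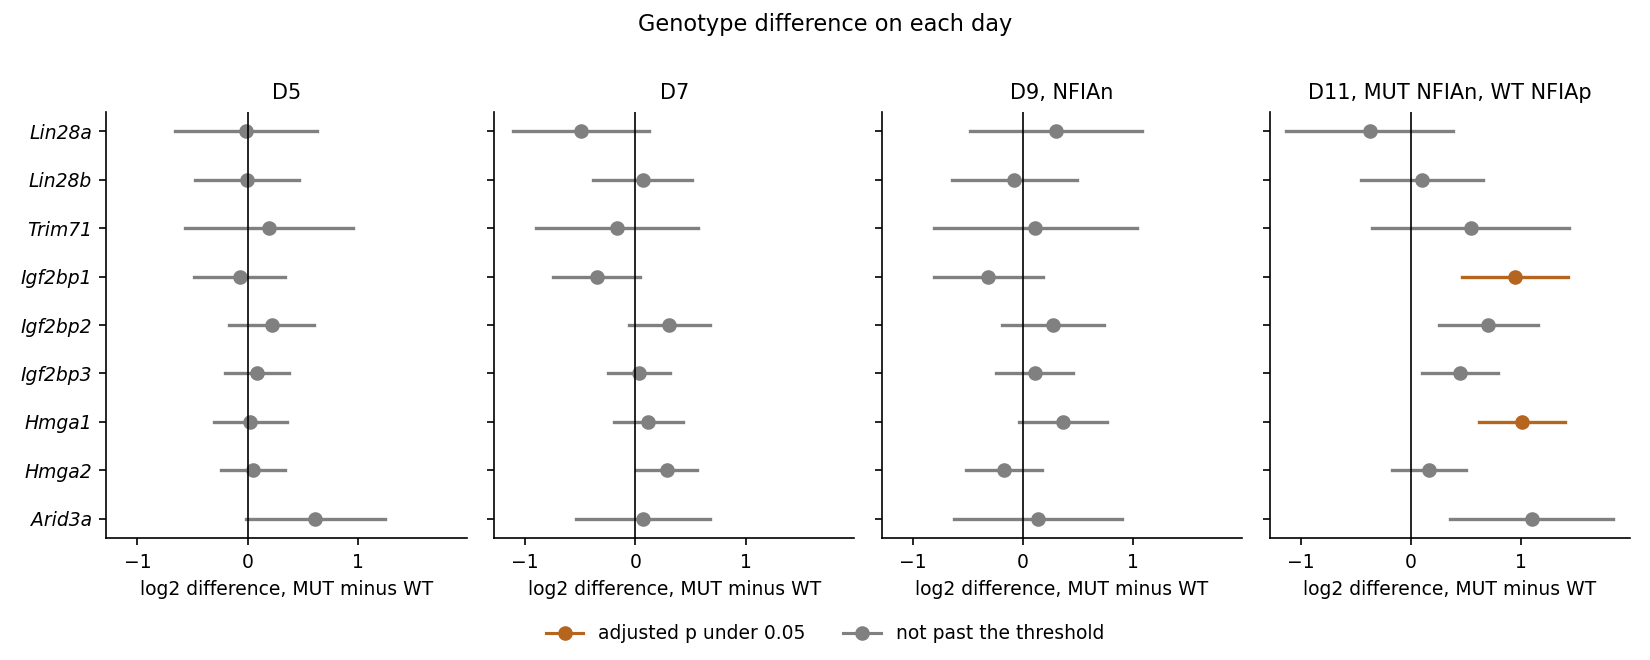
Log2 difference of MUT minus WT for each gene at D5, D7, D9 (NFIAn) and D11, as the mean over domains with its 95% interval. Points in colour have a limma adjusted p under 0.05 and are Hmga1 (1.01) and Igf2bp1 (0.94) at D11.

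The change of D11 against D5 was smaller in MUT than in WT for Hmga1, by 0.98 ± 0.25 (95% interval 0.48 to 1.49, adjusted p = 0.043, n = 15 MUT and 14 WT libraries), the 1 of 9 genes called in this test of the difference itself (background 0.293%). Igf2bp1 differed by 1.02 ± 0.31 (adjusted p = 0.15) and was not called. The Hmga1 call is narrow: edgeR gave 0.08, the fit without the libraries of high total 0.068, the fit on the compared groups alone 0.11 and the fit with correlated replicate numbers 0.35, and it was lost on leaving out any of 17 of the 29 libraries, with differences between 0.81 and 1.16 over all of them.

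Domains of WT were compared day by day. Over the 4 days limma called 0 of 9 between p2 and p1 (background 1.83% in either direction), with 1 at an unadjusted p under 0.05 and 0 by edgeR and DESeq2. It also called 0 between pM and p2 (background 2.46%), with 2 at an unadjusted p under 0.05, and edgeR and DESeq2 called 1 each. The 2 were Lin28a, lower in pM by -0.97 ± 0.30 (adjusted p = 0.072), and Hmga2, higher in pM by 0.36 ± 0.13 (0.19). Hmga2 at D11 in WT had 1402 and 952.1 in pM, against 563.7 and 531.7 in p2 and 766.9 and 625.3 in p1. All 4 of the p1 and p2 libraries were below both pM libraries, and pM minus p2 at D11 was 1.08 (adjusted p = 0.099). The limma F test of whether the D5 to D11 change differed among domains called 0 (background 0.891%), with 1 at an unadjusted p under 0.05, Hmga2 at 0.014, and 0 by edgeR and DESeq2.

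Of 24 tested genes from a list of other described let-7 targets, 16 were lower and 0 higher at D11 than at D5 in WT, and the median difference was -0.86. Over all genes 22.8% were lower and 25.1% higher. In MUT 16 were lower and 1, E2f2, was higher. The largest falls in WT were those of Prtg, a transmembrane protein of the early neural tube (-7.72 ± 0.20), Nr6a1, an orphan nuclear receptor of trunk development (-5.55 ± 0.34), the D-type cyclin Ccnd2 (-4.44) and Arid3b, a relative of Arid3a (-3.00). Nr6a1 had WT medians of 2415 at D5, 492.4 at D7, 94.33 and 74.15 in NFIAn and NFIAp cells at D9, and 49.69 at D11. Nras, Igf1r, Insr, E2f2, E2f5, Cdk6 and Map4k3, also described as targets, were among those not called in WT. At D11 Mycn alone of the 24 was called between genotypes, higher in MUT by 1.09 ± 0.26 (adjusted p = 0.0073).

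Among the machinery that makes and uses let-7, most genes were not called or fell. Of 21 genes of microRNA processing and uridylation, 9 were lower and 2 higher at D11 than at D5 in WT (median -0.35), where 22.8% of all genes were lower and 25.1% higher. In MUT 9 of the 21 were lower and 3 higher, and of the 15714 genes tested 3450 were lower and 3783 higher. Xpo5, which exports precursors, fell by 1.81 on the log2 scale in WT, and Ago2 by 1.56, Dicer1 by 1.52 and Drosha by 1.04. Ago1 (1.11) and Prkra (0.69), a partner of Dicer, were higher. Zcchc11 (Tut4), which adds the uridines that Lin28a calls for, differed by -0.94 ± 0.24.

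Of the transcripts that contain let-7 hairpins, 3 were measured well enough to test. Mir99ahg (chr16:77236317-77773427, plus strand), the host of Mirlet7c-1 (chr16:77599657-77599750), rose while the Lin28 genes fell. Its median was 11.68 at D5, 130.2 at D7, 198.9 at D9 and 196.4 at D11 in MUT, and 8.824 at D5, 106.0 at D7, 173.5 and 260.2 in NFIAn and NFIAp cells at D9, and 231.4 at D11 in WT. D11 minus D5 was 4.05 ± 0.33 in MUT and 4.36 ± 0.34 in WT (adjusted p = 4.1e-15 in WT). Wdr82, host of Mirlet7g, was higher in WT by 0.81, and Huwe1, host of Mirlet7f-2 and Mir98, was lower by 0.88. The hairpin genes themselves were at or near 0 in a polyadenylated library, with Mirlet7i seen in 5 libraries. A host's level does not give that of the mature microRNA.

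Across the 26 group means, the levels of the 9 genes were correlated, as a description of points that share days and size factors. Pearson's r between members was highest for Lin28a with Lin28b and for Igf2bp1 with Igf2bp3, at 0.963 each, and lowest for Lin28a with Igf2bp2, at 0.812. Outside the set, tested genes past a floor of mean level were ranked, passing over gene models, clones and pseudogenes. Among them the genes most like Lin28a were Nop56 (0.974), Setd8 (0.969), Brca2 (0.967), Pola1 (0.960) and Chaf1a (0.956). Most like Lin28b were Ccnd2 (0.978), Prtg (0.967), Mtap, Mthfd2 and Pola1 (0.965 each). Hmga2 had lower highest values, with Zfp568 at 0.940, Mtap at 0.928, Ybx3 at 0.922, Trmt10a at 0.917 and Prtg at 0.916.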

How the data were processed

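Polyadenylated RNA was sequenced in 66 libraries. The authors used the mm10 genome and DESeq2, per the submitters' processing notes, and tool versions are not given in the sources used here. The signal that the authors deposited is a count of reads over the library's size factor. Once a library's values were divided by what 1 read is worth in it, 100% lay within 0.01 of a whole number. Such recovered reads served for edgeR and DESeq2 as alternatives.

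From the deposited values, limma with a variance trend was fitted to log2(normalised count + 1), with a mean for each of the 26 groups over all 66 libraries. The test took the 15714 of 24410 symbols that reached a value of 10 in 2 or more libraries, with all 9 genes of the axis among them. P-values are two-sided and Benjamini-Hochberg adjusted over all genes tested, and a gene was called at an adjusted p under 0.05. A difference over several domains averages those found within each, and is given ± SE of the fit. The lone library of MUT D9 p2 is taken to vary like other groups. Libraries of a genotype, domain, gate and day are replicates by their labels, but no source used here says that they came from separate cultures, so p-values reflect the library-to-library spread alone, which may be technical. Shares left are ratios of group means, with no test. No library was left out. Alternatives were edgeR, DESeq2, TMM scaling, another pseudocount (8), all genes unfiltered, a fit on the compared groups, replicate numbers as a block or as a correlation, each library left out in turn, and fits without or with only the libraries of high total. The fit with only the libraries of high total was chosen after seeing the data. Some genes of the lists are not reported here.

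The 9 genes and the gene lists were chosen with earlier results of these data known. Beside the 9 genes, the text names list genes by the size of their change in WT D11 against D5. For Lin28a, Lin28b and Hmga2 it also names the 5 genes of highest Pearson correlation with them over the 26 group means. That ranking took tested genes outside the set with a mean over all libraries past a floor. It passed over gene models, clones and pseudogenes, known by their symbols. Positions and 3′ UTRs are from GENCODE M21 (GRCm38), the same assembly as mm10, and miRNA sequences from RefSeq (GRCm38.p6). Simulated data of the same groups and size factors were used to test the limma fit in some of the comparisons. They had independent libraries and the same dispersion for all genes. Correlated replicate numbers and the libraries of high total were not simulated, so the test does not bear on them. Software was Python 3.11.15 with matplotlib 3.10.9, and R 4.3.3 with edgeR 4.0.16, limma 3.58.1 and DESeq2 1.42.0.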

Additional observations from a re-analysis of the deposited data

Results flagged for a closer look

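The difference between the MUT and the WT change of Hmga1 from D5 to D11 was past the threshold in a test of the difference itself, at 0.983 ± 0.252 on the log2 scale (limma adjusted p = 0.043). The adjusted p was 0.068 without the libraries of high total, 0.08 by edgeR, 0.11 in a fit on the compared groups alone and 0.35 with correlated replicate numbers. Hmga1 averaged 26.4% of its D5 level at D11 in MUT and 13.6% in WT, and all 6 MUT libraries of D11 lay above the WT libraries of their domain. MUT cells of D11 are NFIAn and WT cells of D11 NFIAp, so genotype and gate cannot be told apart.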

How the results depend on the processing

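Lower calls at D11 against D5 were 9 in MUT and in WT under every alternative run, and no called difference changed sign. Counts moved most where D7 and D9 libraries enter. Without the libraries of high total, lower calls were 5 for MUT D7 against D5, 2 for MUT D9 against D7, 2 for MUT D11 against D9, 4 for WT D7 against D5 and 2 for WT D11 against D9 in p1. With these libraries alone they were 2 for MUT D9 against D7 and 4 for WT D9 NFIAn against D7. A fit on the compared groups alone gave 2 lower for MUT D11 against D9, 3 for WT D11 against D9 NFIAp and 0 for the same step in p1, where edgeR gave 3. Correlated replicate numbers gave 3 lower for MUT D9 against D7 and 4 for WT D11 against D9 NFIAp. For MUT against WT at D11, higher calls were 4 when the libraries of high total were left out, 0 in the fit on the compared groups and 1 with the correlation. The difference of changes had 0 higher in the fit on the compared groups, with the correlation and by edgeR, and 2 by DESeq2. Between the gates DESeq2 gave 1 lower and the correlation 1 higher and 3 lower. Between pM and p2, 1 lower was called with a pseudocount of 8, in the fit on the compared groups, with the correlation, by edgeR and by DESeq2, and 1 higher with the correlation, which also gave 1 in the F test. The cause was not tested in any of these.

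The labels do not say what libraries of the same replicate number share, so the replicate number was not taken as a pairing: same-numbered libraries of a day correlated at -0.004 to 0.401 (163 pairs, median 0.165), and differently numbered ones at -0.303 to 0.211 (median -0.099). With the replicate number as a block, the difference of changes had 2 higher and pM against p2 had 1 lower. With a block for replicate number and day together, MUT against WT had 5 higher at D11, and 2 higher and 1 lower at D7. That block gave 1 higher and 2 lower between the gates, and 1 higher and 1 lower between pM and p2.

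Leaving out each library in turn, lower calls ranged from 7 to 9 for MUT D7 against D5, 3 to 6 for MUT D9 against D7, 2 to 4 for MUT D11 against D9, 4 to 8 for WT D7 against D5, 6 to 9 for WT D9 NFIAn and 6 to 8 for WT D9 NFIAp against D7, and 3 to 7 for WT D11 against D9 NFIAp (3 in p1 each time). Higher calls ranged from 1 to 4 for MUT against WT at D11 and 0 to 1 for the difference of changes, and lower calls between pM and p2 from 0 to 1. Of 63 shares left, 8 moved by more than the spread between libraries when those of high total were left out, and 5 when values were scaled to total reads. The depth limits Lin28a at D11, where a library held as few as 2 reads.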
